A study of Cyanidioschyzon merolae with 29 samples.

Results

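The red microalga *Cyanidioschyzon merolae* was compared after 5 days in 3 mM Ni and without added Ni. The labels give the treated cultures as 3C, 3D and 3E and the untreated cultures as C3, C4 and C5, and these 6 libraries, chosen by dose and day alone, belong to a series of 29 that also holds 1 mM Ni and days 0, 10 and 15. All cultures were algal cells of the strain NIES-3377 in acidic medium at high temperature under continuous white light, NiSO4 was present from the start in the Ni cultures, and no other agent was given. Each library was made from the poly(A)-selected RNA of a whole culture, a selection that takes up transcripts of the chloroplast and the mitochondrion incompletely. The study's methods call the libraries of a condition biologically independent, and the labels do not say how the cultures were kept apart. All 4984 genes of the table were considered and 4796 had enough counts to be tested.

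Nickel is needed in traces by a few enzymes, and in excess it can take the place of iron, zinc or magnesium in proteins and disturb their folding. Cells regulate such metals through families of membrane transporters, among them the ZIP and NRAMP proteins and iron permeases, which bring metal ions into the cytosol, and the cation diffusion facilitators, which remove them from it. Misfolded proteins are handled by heat shock proteins, chaperonins and the proteasome. *C. merolae* is a unicellular alga of acidic hot springs whose chloroplast genome encodes much of the photosynthetic apparatus, a major consumer of iron.

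The 6 libraries held 2797232 to 3119362 counts, and 4868 to 4900 genes had at least 1 count. Photosynthetic transcripts of the alga were present in each of them, from 596 to 2500 CPM (counts scaled to a common library size by the trimmed mean of M values) for the phycobilisome gene apcA, 884 to 2340 CPM for rbcL and 228 to 510 CPM for psbA. The gene psaA had 566 to 1940 CPM. The phycobilisome genes cpcA and cpcB were low, at 4.65 to 12.2 and 16.3 to 49.7 CPM. In each group 1 culture, 3C and C3, lay apart from the others. The root mean square log2 difference over the genes was 0.470 and 0.486 between 3C and the cultures 3D and 3E, and 0.197 between 3D and 3E. It was 0.766 and 0.724 between C3 and the cultures C4 and C5, and 0.274 between C4 and C5. Culture C3 lay closer to the 3 cultures at 1 mM Ni (0.321 to 0.450) than to the other untreated cultures. Culture 3C likewise lay closer to the cultures at 1 mM Ni (0.34 to 0.43) than to 3D and 3E. For this reason counts are also given without 3C and C3, where they differ from those of all libraries by over 1.5 times, and from a fit of the 6 libraries alone that pairs the cultures by their place in the labels (3C with C3, 3D with C4, 3E with C5), called the culture block.

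A total of 489 genes were differentially expressed (DEGs, adjusted p under 0.05 in edgeR's quasi-likelihood test), 10.2% of the genes tested, with 260 upregulated (5.42%) and 229 downregulated (4.77%). Of the DEGs 166 changed by 2-fold or more, their absolute log2 fold change had a median of 0.81, and the log2 fold change over all genes tested had a median of −0.04. In 453 DEGs the treated and the untreated libraries did not overlap, whereas over all genes the 3 treated libraries lay above all untreated ones in 14.6% and below them in 15.1%. Without 3C and C3 there were 542 DEGs, 342 upregulated (7.13%) and 200 downregulated (4.17%), and 329 of the 489 were among them. With the culture block there were 1357, 747 upregulated (15.8%) and 610 downregulated (12.9%), and 465 of the 489 were among them. The number depended on single libraries, from 179 without 3C to 1157 without C3 (658 upregulated, 13.7%, and 499 downregulated, 10.4%), with 305 without 3D, 411 without 3E, 214 without C4 and 184 without C5. A core of 129 DEGs, 68 upregulated and 61 downregulated, kept its call whichever of the 6 libraries was left out, and 488 of the 489 had the same sign in 3C against C3 and in 3D and 3E against C4 and C5. The DEGs were picked on these same libraries, so like signs and groups without overlap follow largely from the picking. Neither is a check of the calls.

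**Figure D1:**
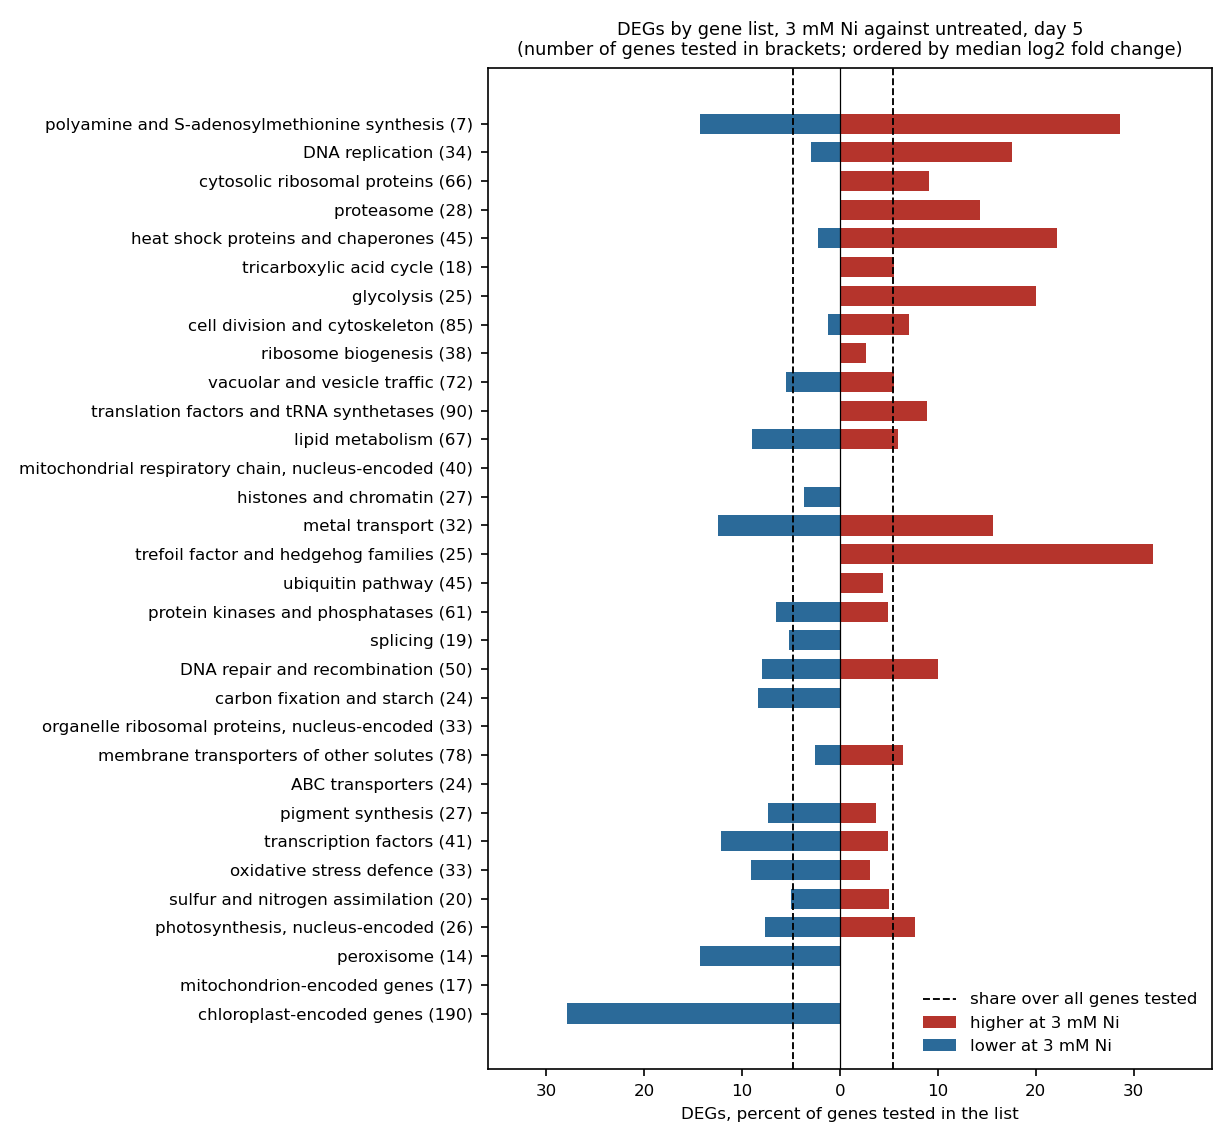
DEGs in each gene list as a percentage of the genes tested in it, to the right for genes higher and to the left for genes lower at 3 mM Ni than in untreated cultures; dashed lines mark the shares over all genes tested, 5.42% and 4.77%. The longest bar to the right belongs to the trefoil factor and hedgehog families (32.0%) and the longest to the left to the chloroplast-encoded genes (27.9%).

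Genes of metal transport gave some of the largest changes of the comparison. Of 32 genes tested, 5 were upregulated (15.6%, against 5.42% of all genes) and 4 downregulated (12.5%, against 4.77%), while the median of the list was −0.02. There were 5 upregulated and 2 downregulated without 3C and C3, 8 and 5 with the culture block, and 1 downregulated without 3C, without C4 or without C5. The transcript similar to the periplasmic protein p19 (*CMG092C*, chromosome 7, positions 240647 to 241258 of the assembly ASM9120v1, to which all positions refer), which in *Campylobacter* belongs to an iron uptake system, had 12.3, 5.01 and 4.07 CPM at 3 mM Ni and no count in any untreated library. Taken against 3 counts in each untreated library, it was at least 6.61-fold higher at 3 mM Ni (adjusted p = 0.00342, edgeR). The metal ion transporter *CML262C* (CmNRAMP2, chromosome 12, positions 677283 to 679067), of a family that imports divalent metals together with protons, had 225, 201 and 240 CPM at 3 mM Ni, against 34.2, 10.4 and 16.5 CPM in untreated cultures. The groups were far apart, C3 was the highest untreated library, and the log2 fold change was 3.44 ± 0.44 (SE, n = 3 each, adjusted p = 3.9e-05, edgeR). The zinc transporter *CMS155C* (CmZIP1, chromosome 19, positions 413080 to 414267) had 186, 117 and 112 CPM at 3 mM Ni and 8.63, 6.71 and 6.44 CPM in untreated cultures, a log2 fold change of 4.24 ± 0.82 (adjusted p = 0.00261). Its lowest treated library lay far above its highest untreated library.

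The iron permease *CML004C* (CmFTR2, chromosome 12, positions 11304 to 12884) had 107, 69.9 and 88.9 CPM at 3 mM Ni, against 24.9, 18.3 and 14.3 CPM in untreated cultures, and was upregulated by 2.20 ± 0.37 on the log2 scale (adjusted p = 0.000707, edgeR). The other genes that the table describes as iron permeases, *CMJ315C* and *CMQ004C*, were not called (log2 fold changes 0.37 and 0.13, adjusted p = 0.40 and 0.74), although *CMJ315C* had an adjusted p of 0.0246 with the culture block. *CMN003C*, which the table leaves undescribed and the study counts among the permeases, was not called either (−0.26 ± 0.20, adjusted p = 0.437). The second zinc transporter, *CMG102C* (CmZIP2), had 69.5, 64.3 and 65.7 CPM at 3 mM Ni and 34.9, 51.8 and 44.0 CPM in untreated cultures (log2 fold change 0.61 ± 0.16, adjusted p = 0.0168), a smaller change that was not called without 3C or without C5 (adjusted p up to 0.0747). The treated values of *CMG102C* were nearly alike, and the spread lay in the untreated ones. *CML032C*, a sodium-dependent transporter of a family that exports arsenite in yeast, had overlapping groups (123, 94.4 and 84.3 CPM at 3 mM Ni, 97.7, 48.8 and 56.2 CPM in untreated cultures) and was not called (0.57 ± 0.19, adjusted p = 0.0603). *CML032C* was called without 3E, without C3, without 3C and C3 (adjusted p = 0.00599) and with the culture block (adjusted p = 0.0177).

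The 4 downregulated metal transporters had log2 fold changes of −0.39 to −0.70. The second NRAMP gene, *CMJ138C* (CmNRAMP1), had 326, 362 and 371 CPM at 3 mM Ni, against 589, 561 and 577 CPM in untreated cultures (log2 fold change −0.70 ± 0.16, adjusted p = 0.00779, edgeR), and it was the only one of the 4 that kept its call whichever library was left out. The 2 NRAMP genes thus moved in opposite directions, each without overlap between the groups. The vacuolar iron transporter *CMT466C*, of a family that loads iron and manganese into the vacuole, had 153, 161 and 182 CPM at 3 mM Ni and 216, 260 and 226 CPM in untreated cultures (−0.50 ± 0.14). The manganese transporter *CMC075C* (CmMTP2), a cation diffusion facilitator, had 73.2, 106 and 113 CPM at 3 mM Ni and 119, 177 and 151 CPM in untreated cultures (−0.61 ± 0.17). The magnesium transporter of the mitochondrion, *CMO315C*, had 112, 115 and 124 CPM at 3 mM Ni and 141, 153 and 167 CPM in untreated cultures (−0.39 ± 0.12). Their adjusted p-values were 0.0238, 0.0270 and 0.0421, and each was no longer called without 3C, without C4 or without C5, with adjusted p up to 0.184. *CMT466C* and *CMO315C* were also lost without 3D, and *CMO315C* without 3E.

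ABC transporters, which move many kinds of substrates with the energy of ATP, had no DEG among 24 genes tested in edgeR, with 4 at an unadjusted p under 0.05 and 1 called by DESeq2. There was 1 downregulated without 3C and C3, and 6 with the culture block. The lowest p was that of *CMT120C*, with 375, 332 and 394 CPM at 3 mM Ni and 593, 510 and 557 CPM in untreated cultures (−0.59 ± 0.20, adjusted p = 0.0569, edgeR). The groups of *CMT120C* did not overlap, yet the gene was not called. Transporters of other solutes had 5 upregulated (6.41%, against 5.42% of all genes) and 2 downregulated members (2.56%, against 4.77%) among 78 tested, close to or under the shares of all genes, with 4 and 0 without 3C and C3 and 14 and 10 with the culture block. Leaving out 1 library gave 3 (3C) to 6 upregulated and 0 (3C, 3D, C4, C5) to 6 (C3) downregulated. The potassium transporter *CMF073C* had 436, 366 and 330 CPM at 3 mM Ni and 231, 125 and 122 CPM in untreated cultures (1.24 ± 0.20, adjusted p = 0.000479), and the phosphate cotransporter *CMP354C* had 122, 88.5 and 81.7 CPM at 3 mM Ni and 49.7, 37.7 and 41.5 CPM in untreated cultures (1.18 ± 0.26, adjusted p = 0.00586). Both stayed called whichever library was left out. The sodium-dependent transporter *CMT056C* was downregulated (458, 480 and 556 CPM at 3 mM Ni, 847, 864 and 969 CPM in untreated cultures, −0.84 ± 0.23, adjusted p = 0.0207), but was not called without 3C, 3D, C4 or C5 (adjusted p up to 0.103).

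**Figure D2:**
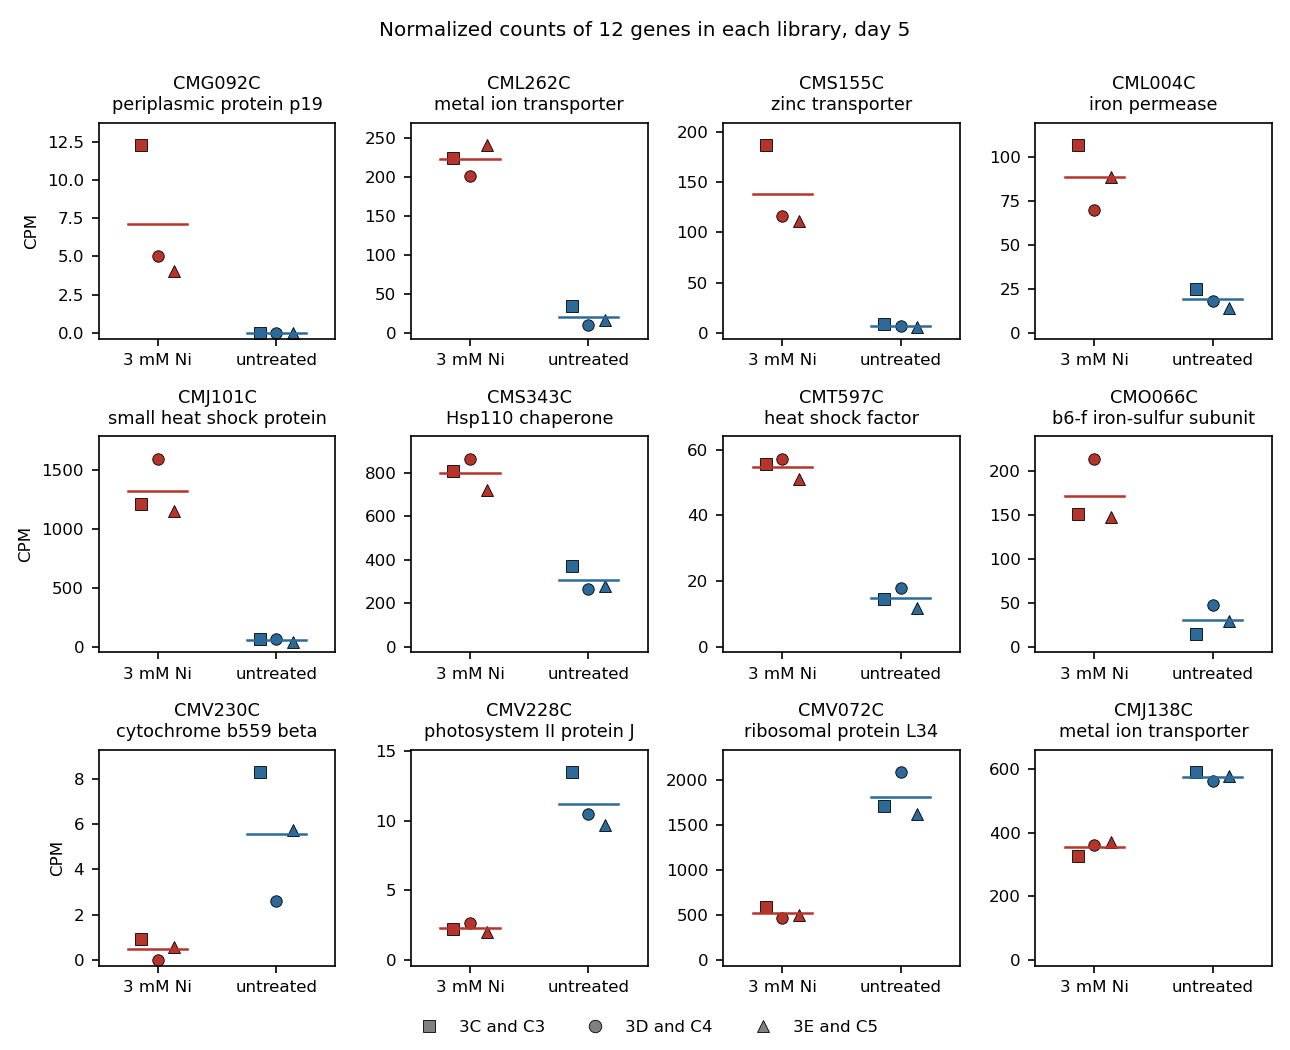
CPM of 12 genes in each library of day 5, with 3 mM Ni on the left, untreated cultures on the right, the same marker for cultures of the same place in the labels and a horizontal line at the mean. In all 12 genes the treated and the untreated libraries lie apart, for example *CML262C* at 201 to 240 CPM at 3 mM Ni against 10.4 to 34.2 CPM in untreated cultures.

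Heat shock proteins and chaperones, which hold or refold misfolded proteins, moved mostly upwards. Among 45 genes tested 10 were upregulated (22.2%, against 5.42% of all genes) and 1 was downregulated, with a median log2 fold change of 0.31, and 33 were higher at 3 mM Ni. The small heat shock protein *CMJ101C* (hsp20 family, chromosome 10, positions 295921 to 296640), which binds unfolded proteins without using ATP, had 1213, 1593 and 1151 CPM at 3 mM Ni, against 59.7, 60.4 and 40.5 CPM in untreated cultures. Its log2 fold change was 4.62 ± 0.57 (SE, n = 3 each, adjusted p = 2.5e-05, edgeR), and all treated libraries lay far above the untreated ones. The Hsp110 chaperone *CMS343C*, which exchanges the nucleotide on Hsp70, had 810, 866 and 724 CPM at 3 mM Ni and 369, 267 and 279 CPM in untreated cultures (1.39 ± 0.30, adjusted p = 0.00538). A heat shock transcription factor, *CMT597C*, of the family that binds the promoters of such genes, had 55.6, 57.2 and 51.1 CPM at 3 mM Ni and 14.5, 17.9 and 11.8 CPM in untreated cultures (1.89 ± 0.37, adjusted p = 0.00304). These 3 genes kept their call in each of the fits without 1 library.

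The cytosolic Hsp70 *CMP145C*, named here after its values were seen, was the most abundant member at 3 mM Ni, with 5747, 6021 and 4755 CPM at 3 mM Ni, against 2807, 1874 and 1955 CPM in untreated cultures (log2 fold change 1.32 ± 0.37, adjusted p = 0.0256, edgeR). Its groups did not overlap, but it was not called without 3C, 3D, C4 or C5 (adjusted p up to 0.113). Chaperonins are ring complexes that enclose folding proteins. A subunit of the cytosolic one, which folds actin and tubulin, was upregulated (*CMG005C*, 84.2, 75.2 and 83.1 CPM at 3 mM Ni, 60.4, 37.3 and 47.6 CPM in untreated cultures, 0.74 ± 0.17, adjusted p = 0.00848), and so was *CMT318C*, of the TCP-1 and cpn60 family (359, 256 and 221 CPM at 3 mM Ni, 212, 111 and 114 CPM in untreated cultures, 0.93 ± 0.22, adjusted p = 0.0104). *CMG005C* was not called without C4, nor *CMT318C* without 3C, C4 or C5 (adjusted p up to 0.0894). Of 7 chaperonins of the TCP-1 and cpn60 type 3 were upregulated (against 5.42% of all genes), and 6 were without 3C and C3. Among 19 DnaJ proteins, cochaperones of Hsp70, 1 was upregulated and 1 downregulated, near the 5.42% and 4.77% of all genes. There were 0 and 1 without 3C and C3, and 2 and 2 with the culture block. The downregulated one was *CMI136C* (206, 284 and 290 CPM at 3 mM Ni, 338, 523 and 509 CPM in untreated cultures, −0.81 ± 0.24, adjusted p = 0.0289). In the fits without 1 library *CMI136C* kept its call only without C3. It was also called without 3C and C3 (adjusted p = 0.0409) and with the culture block (adjusted p = 0.00464). The list of heat shock proteins and chaperones had 3 upregulated members without 3C, without C4 or without C5 and 15 without C3, and 17 with the culture block.

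The proteasome, which degrades proteins tagged with ubiquitin, had 27 of its 28 members higher at 3 mM Ni, with a median log2 fold change of 0.35, but only 4 upregulated (14.3%, against 5.42% of all genes). The regulatory subunit RPN7 (*CMG170C*) had 159, 101 and 78.2 CPM at 3 mM Ni, against 70.8, 35.0 and 34 CPM in untreated cultures (1.27 ± 0.26, adjusted p = 0.00353, edgeR). Values of 3C and C3 were the highest of their groups, and the lowest treated library lay just above C3. RPN1 (*CMP340C*) had 387, 343 and 312 CPM at 3 mM Ni and 257, 153 and 153 CPM in untreated cultures (0.89 ± 0.21, adjusted p = 0.0091), RPN12 (*CMJ011C*) changed by 0.61 ± 0.14 (adjusted p = 0.00943) and a regulatory ATPase subunit (*CMK294C*) by 0.56 ± 0.15 (adjusted p = 0.0231). Without 1 library the number of upregulated subunits ran from 1 (without 3C or C4) to 9 (without C3), and it was 7 without 3C and C3 and 16 with the culture block. Of the 4, RPN7 alone kept its call whichever library was left out. Of 45 genes of the ubiquitin pathway 2 were upregulated (4.44%, against 5.42% of all genes; 5 with the culture block), the ubiquitin-like modifier Rub1 (*CML042C*, 25.8, 23.0 and 18.3 CPM at 3 mM Ni, 10.7, 8.2 and 10.0 CPM in untreated cultures, 1.21 ± 0.30, adjusted p = 0.0138) and *CMK008C* (0.42 ± 0.13, adjusted p = 0.0428), and neither was called without 3C and C3, without 3C, without C4 or without C5.

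Ribosomal proteins of the cytosol shifted together by a small amount. Of 66 genes tested 58 were higher at 3 mM Ni, the median log2 fold change was 0.41 against −0.04 over all genes, and 6 were upregulated (9.09%, against 5.42%) and none downregulated. The subunit L18 (*CMB018C*) had 346, 218 and 218 CPM at 3 mM Ni, against 189, 139 and 115 CPM in untreated cultures (0.82 ± 0.21, adjusted p = 0.0146, edgeR). For L12 (*CMS284C*) the groups overlapped, with 461, 337 and 322 CPM at 3 mM Ni and 335, 215 and 192 CPM in untreated cultures (0.59 ± 0.17, adjusted p = 0.0268), and C3 lay between 3D and 3E. No ribosomal protein was called without 3C, without C4 or without C5, and 41 were called without C3, 22 without 3C and C3, and 41 with the culture block. Among 90 translation factors and tRNA synthetases 8 were upregulated (8.89%, against 5.42% of all genes) and none downregulated. Leaving out 1 library gave 2 (3C) to 30 (C3) upregulated, with 3 without C4 or C5, and there were 15 without 3C and C3. Glycine tRNA ligase (*CMC037C*, 251, 171 and 162 CPM at 3 mM Ni, 110, 81.3 and 79.8 CPM in untreated cultures, 1.10 ± 0.21, adjusted p = 0.00266) and the mitochondrial elongation factor Ts (*CMB051C*, 34.6, 28.3 and 29.6 CPM at 3 mM Ni, 14.8, 16.0 and 14.3 CPM in untreated cultures, 1.03 ± 0.21, adjusted p = 0.00389) kept their call whichever library was left out. With the culture block 27 were upregulated and 3 downregulated. Nucleus-encoded ribosomal proteins of the organelles had no DEG among 33 tested in edgeR (median −0.10, 6 at an unadjusted p under 0.05, 0 called by DESeq2). They had 2 upregulated and 1 downregulated with the culture block, and 1 downregulated without 3C and C3.

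Transcripts of the chloroplast genome were lower at 3 mM Ni almost throughout. Of 190 genes tested all but 4 had a negative log2 fold change, with a median of −0.91 against −0.04 over all genes, and 53 were downregulated (27.9%, against 4.77% of all genes) and none upregulated. Chloroplast genes took 2.80%, 2.95% and 2.92% of the counts in 3C, 3D and 3E, and 3.84%, 5.46% and 5.75% in C3, C4 and C5, a mean of 2.89 ± 0.08% at 3 mM Ni and 5.02 ± 1.03% in untreated cultures (SD, n = 3 each). The groups did not overlap, and the two-sided exact permutation p of 0.1 is the smallest that 3 against 3 libraries can give. Untreated libraries of all days ran from 2.27% to 6.82%, a range that includes the treated values. As whole cultures were sequenced, less chloroplast RNA per cell and fewer cells carrying it cannot be told apart, and whether poly(A) selection took a different part of it in the 2 groups was not tested. Downregulated chloroplast genes numbered 49 without 3C and C3, 95 with the culture block and 34 to 67 in the fits without 1 library, the most without C3, and 27 kept their call in each of these fits.

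**Figure D3:**
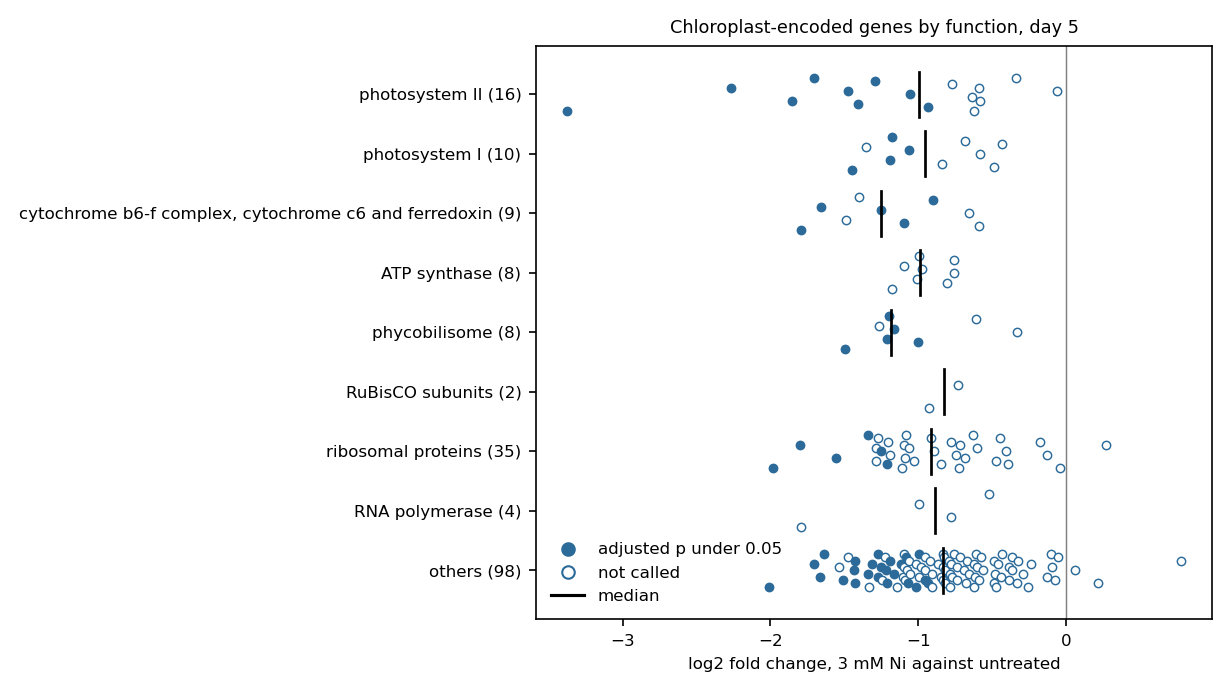
Log2 fold change (3 mM Ni over untreated, day 5) of the chloroplast-encoded genes tested, grouped by function with their number in brackets; filled points are DEGs, open points are not called, and the vertical bars are medians. Medians of the groups run from −0.83 to −1.25, and the point furthest to the left is *CMV230C* at −3.38. The photosystem I genes *CMV059C* and *CMV128C* are shown among the others.

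Photosystem II, which splits water, had 9 of 16 genes downregulated (against 27.9% of the chloroplast genes and 4.77% of all genes), with a median log2 fold change of −0.99. The beta subunit of cytochrome b559 (*CMV230C*) had 0.940, 0 and 0.580 CPM at 3 mM Ni, against 8.28, 2.61 and 5.73 CPM in untreated cultures. With 5 counts in all at 3 mM Ni and 47 in untreated cultures, the ratio of the summed counts was 0.089 (exact 95% interval 0.0276 to 0.223, counting error only, adjusted p = 0.00576 in edgeR). Protein J (*CMV228C*) had 2.20, 2.65 and 2.03 CPM at 3 mM Ni and 13.5, 10.4 and 9.66 CPM in untreated cultures (−2.27 ± 0.40, adjusted p = 0.00128). Protein I (*CMV240C*) had 5.66, 5.90 and 4.07 CPM at 3 mM Ni and 21.7, 16.0 and 19 CPM in untreated cultures (−1.86 ± 0.39, adjusted p = 0.00494). These 3 small subunits were among the DEGs that fell most, and all stayed called whichever library was left out. Protein Z (*CMV141C*) had 66.6, 52.5 and 64.8 CPM at 3 mM Ni and 189, 166 and 156 CPM in untreated cultures (−1.47 ± 0.23, adjusted p = 0.000391), the smallest adjusted p among chloroplast genes. The gene of the D1 reaction centre protein, psbA (*CMV047C*), was not called (−0.34 ± 0.93, adjusted p = 0.838).

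In the cytochrome b6-f complex, which passes electrons between the photosystems, with cytochrome c6 and ferredoxin, 5 of 9 chloroplast genes were downregulated (against 27.9% of the chloroplast genes and 4.77% of all genes, median −1.25). Cytochrome f (*CMV155C*) had 417, 445 and 472 CPM at 3 mM Ni, against 708, 1085 and 1059 CPM in untreated cultures (−1.10 ± 0.22, adjusted p = 0.00302, edgeR). Subunit 8 (*CMV148C*) had 19.2, 11.2 and 13.1 CPM at 3 mM Ni and 46.6, 41.8 and 62.3 CPM in untreated cultures (−1.79 ± 0.40, adjusted p = 0.00688). In neither gene did the groups overlap. Cytochrome c6 (*CMV209C*), a soluble iron-containing carrier, had a log2 fold change of −0.90 ± 0.20 (adjusted p = 0.007), and ferredoxin (*CMV193C*), the iron-sulfur carrier after photosystem I, had 20.1, 30.1 and 22.7 CPM at 3 mM Ni and 37.6, 76.4 and 60.1 CPM in untreated cultures (−1.25 ± 0.32, adjusted p = 0.0143). Cytochrome f, cytochrome c6 and ferredoxin are described here after their values were seen, and cytochrome c6 was not called without C5 (adjusted p = 0.0514), nor ferredoxin without 3C, C4 or C5 (adjusted p up to 0.0917).

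In the photosystem I group 4 of 10 genes were downregulated (against 27.9% of the chloroplast genes and 4.77% of all genes, median −0.95), and its large subunit psaA (*CMV135C*) was not called (−0.58 ± 0.59, adjusted p = 0.551, edgeR). The group leaves out *CMV059C* and *CMV128C*, also described as photosystem I genes. Neither was called (log2 fold changes −1.10 and −0.74, adjusted p = 0.21 and 0.44). The phycobilisome, the light-harvesting antenna of red algae, had 5 of 8 downregulated (against the same shares, median −1.18), or 2 without 3C and C3. The allophycocyanin chain *CMV048C* had 208, 182 and 214 CPM at 3 mM Ni, against 734, 441 and 526 CPM in untreated cultures (−1.49 ± 0.27, adjusted p = 0.00154). Its alpha chain *CMV158C* had 908, 596 and 600 CPM at 3 mM Ni and 2504, 1103 and 1270 CPM in untreated cultures (−1.21 ± 0.33, adjusted p = 0.0198), and was not called without 3C and C3 (adjusted p = 0.0657), nor without 3D, 3E or C3 (adjusted p up to 0.0832). Both genes were highest in C3 among the untreated libraries. All 8 genes of the ATP synthase had negative values (median −0.99) and none was a DEG in edgeR or in DESeq2 or had an unadjusted p under 0.05, while 5 were downregulated under the culture block. The large subunit of RuBisCO, rbcL (*CMV013C*), was not called (−0.73 ± 0.38, adjusted p = 0.223).

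Of the chloroplast ribosomal proteins 6 of 35 were downregulated (against 27.9% of the chloroplast genes and 4.77% of all genes, median −0.92), or 11 with the culture block. The most abundant was L34 (*CMV072C*), with 590, 471 and 495 CPM at 3 mM Ni and 1712, 2085 and 1619 CPM in untreated cultures (−1.80 ± 0.34, adjusted p = 0.00228, edgeR). S16 (*CMV084C*) had 5.34, 8.26 and 11 CPM at 3 mM Ni, against 20.02, 38 and 40.1 CPM in untreated cultures (−1.98 ± 0.37, adjusted p = 0.00216). Both kept their call whichever library was left out. The 4 chloroplast genes with a positive log2 fold change were none of them called (0.06 to 0.78). Among mitochondrion-encoded genes, which took 0.012% to 0.050% of the counts, none of 17 tested was a DEG in edgeR or DESeq2, 1 had an unadjusted p under 0.05, and 1 was upregulated with the culture block. Without 3C and C3 1 was downregulated, *CMW053C* (log2 fold change −1.38, adjusted p = 0.0133, edgeR). The median of the mitochondrial genes was −0.43, with 0.70 for 3C against C3 and −0.54 for 3D and 3E against C4 and C5.

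Nuclear genes for photosynthesis were also mostly lower at 3 mM Ni, with 7 of 26 higher and a median of −0.32 against −0.04 over all genes, and 2 of them were upregulated and 2 downregulated (7.69% each, against 5.42% and 4.77% of all genes). There were 3 and 0 without 3C and C3 and 2 and 4 with the culture block, and none was downregulated without 3C. The upregulated ones were a pair of genes for the iron-sulfur subunit of the cytochrome b6-f complex. *CMO066C* (chromosome 15, positions 172702 to 173424) had 151, 214 and 149 CPM at 3 mM Ni, against 14.8, 47.4 and 28.6 CPM in untreated cultures (2.51 ± 0.33, adjusted p = 6.3e-05, edgeR). *CMQ165C* (chromosome 17, positions 401676 to 402398) had 152, 232 and 167 CPM at 3 mM Ni and 32.1, 67.5 and 46.2 CPM in untreated cultures (1.92 ± 0.29, adjusted p = 0.000319). In both genes 3D was the highest treated and C4 the highest untreated library, and both kept their call without any single library. Another gene of this description, *CMI281C*, the most abundant, had overlapping groups (1378, 1384 and 1250 CPM at 3 mM Ni, 1421, 1699 and 1251 CPM in untreated cultures, −0.12 ± 0.19, adjusted p = 0.712). Reads that fit several of these genes were not counted, so the split between them is uncertain. The assembly factor of photosystem II *CMO314C* was downregulated (266, 286 and 280 CPM at 3 mM Ni, 404, 383 and 349 CPM in untreated cultures, −0.45 ± 0.11, adjusted p = 0.0104), but not without 3C (adjusted p = 0.0554).

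Pigment synthesis had 1 upregulated and 2 downregulated genes of 27 (3.70% and 7.41%, against 5.42% and 4.77% of all genes, and 2 and 2 with the culture block), the upregulated one being geranylgeranyl hydrogenase (*CMS109C*, 313, 270 and 266 CPM at 3 mM Ni, 228, 191 and 168 CPM in untreated cultures, 0.53 ± 0.15, adjusted p = 0.0247, edgeR). *CMS109C* was not called without 3C, C4 or C5 (adjusted p up to 0.143). In carbon fixation and starch 2 of 24 genes were downregulated (8.33%, against 4.77% of all genes), and with the culture block 4 were upregulated and 3 downregulated. Sedoheptulose bisphosphatase (*CMI196C*), of the Calvin cycle, had 723, 706 and 682 CPM at 3 mM Ni, against 1249, 1073 and 934 CPM in untreated cultures (−0.62 ± 0.17, adjusted p = 0.0177). Its groups did not overlap, and it was not called without 3C and C3 (adjusted p = 0.0794), nor without 3C, 3D, 3E or C4 (adjusted p up to 0.0641). Glycolysis moved the other way, with 5 of 25 genes upregulated (20%, against 5.42% of all genes), none downregulated and a median of 0.28. The phosphofructokinase that uses pyrophosphate (*CMH052C*) had 323, 183 and 157 CPM at 3 mM Ni and 121, 47.7 and 39.7 CPM in untreated cultures (1.67 ± 0.39, adjusted p = 0.00863), and glyceraldehyde-3-phosphate dehydrogenase (*CMM167C*) had 761, 552 and 403 CPM at 3 mM Ni and 299, 270 and 194 CPM in untreated cultures (1.17 ± 0.32, adjusted p = 0.0205). Values of 3C and C3 were the highest of their groups in both. No glycolytic gene remained called without 3C or without C5, while 1 was called without C4, 9 without C3 and 9 with the culture block. Of 18 genes of the tricarboxylic acid cycle 1 was upregulated (5.56%, against 5.42% of all genes), or 9 with the culture block, 7 without C3 and 0 without 3C and C3. Of 40 nuclear genes of the respiratory chain none was a DEG in edgeR, with 6 at an unadjusted p under 0.05 and 1 called by DESeq2. In that list 1 was upregulated without 3C and C3, and 4 were upregulated and 1 downregulated with the culture block.

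Genes of defence against reactive oxygen had few DEGs. Among 33 tested 1 was upregulated (3.03%, against 5.42% of all genes) and 3 were downregulated (9.09%, against 4.77%), and 9 were higher at 3 mM Ni (median −0.20). The mitochondrial manganese superoxide dismutase (*CMR158C*) had 272, 222 and 205 CPM at 3 mM Ni, against 159, 139 and 123 CPM in untreated cultures (0.73 ± 0.19, adjusted p = 0.0177, edgeR). The 3 downregulated genes were thioredoxins, small proteins that reduce disulfides, and the one similar to thioredoxin f (*CMN279C*), which regulates Calvin cycle enzymes in plants, had 368, 368 and 423 CPM at 3 mM Ni and 731, 531 and 609 CPM in untreated cultures (−0.69 ± 0.18, adjusted p = 0.015). With the culture block 6 genes of the list were upregulated and 11 downregulated, without 3C and C3 1 and 1, and without 1 library 0 (3C) to 6 (C3) were downregulated. *CMR158C* was not called without 3C, C4 or C5, nor *CMN279C* without 3C or 3D (adjusted p up to 0.114). Of 7 genes of polyamine and S-adenosylmethionine synthesis 2 were upregulated (28.6%, against 5.42% of all genes, and 3 without 3C and C3, 4 with the culture block), S-adenosylmethionine decarboxylase (*CMO012C*, 819, 565 and 482 CPM at 3 mM Ni, 467, 284 and 208 CPM in untreated cultures, 0.96 ± 0.26, adjusted p = 0.0201) and putrescine aminopropyltransferase (*CMP329C*, 89.2, 85.5 and 72.7 CPM at 3 mM Ni, 62.1, 46.6 and 41.5 CPM in untreated cultures, 0.72 ± 0.17, adjusted p = 0.0104), which act in successive steps towards spermidine. Ornithine aminotransferase (*CML323C*), which draws ornithine away from polyamines, was downregulated (223, 218 and 251 CPM at 3 mM Ni, 407, 356 and 407 CPM in untreated cultures, −0.76 ± 0.20, adjusted p = 0.0154). All 3 enzymes lost their call without 3C or without C5, with adjusted p up to 0.156.

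Nitrogen and sulfur assimilation had 1 DEG in each direction among 20 genes (5% each, near the 5.42% and 4.77% of all genes, and 2 in each with the culture block). Without 3C and C3 1 was upregulated and 0 downregulated. Adenylyl-sulfate kinase (*CMB151C*) had 49.0, 34.8 and 35.8 CPM at 3 mM Ni and 28.3, 20.5 and 18.2 CPM in untreated cultures (0.83 ± 0.20, adjusted p = 0.00951, edgeR), and glutamine synthetase (*CMI233C*), which fixes ammonium, had 2512, 2607 and 2251 CPM at 3 mM Ni and 4726, 3950 and 2924 CPM in untreated cultures (−0.65 ± 0.20, adjusted p = 0.0432). *CMB151C* was not called without 3C, C4 or C5 (adjusted p up to 0.0803). The untreated values of glutamine synthetase were spread widely and its call was lost without 3C, 3D, 3E, C3 or C4 and also with the culture block (adjusted p = 0.106). Lipid metabolism had 4 upregulated (5.97%, against 5.42% of all genes) and 6 downregulated genes (8.96%, against 4.77%) among 67, with 6 and 3 without 3C and C3 and 15 and 9 with the culture block, and none of the 4 was called without 3C, 3D, C4 or C5. The downregulated ones were 9 without C3, 3 without 3D, 1 without C5 and 0 without 3C or C4. The cytoplasmic acetyl-CoA carboxylase (*CMM188C*), which turns acetyl-CoA into malonyl-CoA, had 1002, 1600 and 1686 CPM at 3 mM Ni, against 2689, 3214 and 3204 CPM in untreated cultures (−1.09 ± 0.30, adjusted p = 0.0208). Squalene synthase (*CMG178C*), at the branch to sterols, had 490, 341 and 283 CPM at 3 mM Ni and 248, 151 and 130 CPM in untreated cultures (1.08 ± 0.32, adjusted p = 0.0357). *CMM188C* was not called without 3C, C4 or C5 (adjusted p up to 0.14). Of 14 peroxisomal genes 2 were downregulated (14.3%, against 4.77% of all genes, and 5 with the culture block or without C3, 1 without C4 and 0 without 3C or C5) and only 3 had a positive log2 fold change, with a median of −0.32, among them PEX16 (*CMC174C*, −0.48 ± 0.12, adjusted p = 0.0116).

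DNA replication genes were mostly higher at 3 mM Ni. Of 34 tested 30 had a positive log2 fold change (median 0.66), 6 were upregulated (17.6%, against 5.42% of all genes) and 1 was downregulated. The helicase genes MCM8 (*CMT087C*, chromosome 20, positions 225045 to 228017) and MCM9 (*CMO137C*), which in animals act together in recombination repair, gave the largest values. MCM8 had 89.6, 79.6 and 80.5 CPM at 3 mM Ni, against 50.4, 13.1 and 15.0 CPM in untreated cultures (1.66 ± 0.31, adjusted p = 0.00216, edgeR). MCM9 had 70.7, 87.3 and 73.5 CPM at 3 mM Ni and 50.4, 13.8 and 14.7 CPM in untreated cultures (1.55 ± 0.36, adjusted p = 0.00859). The treated values were alike, and C3 was far above C4 and C5 in both genes. *CMO137C* was not called without C4 or without C5 (adjusted p up to 0.0637). C3 was also the highest untreated library in the GINS subunits Psf2 (*CMQ381C*, 17.3, 20.9 and 23.0 CPM at 3 mM Ni, 13.8, 3.73 and 4.65 CPM in untreated cultures, 1.45 ± 0.40, adjusted p = 0.0225) and Psf1 (*CMR136C*, 0.81 ± 0.20, adjusted p = 0.0119) and in the clamp loader gene *CMQ183C* (44.9, 36.6 and 32.5 CPM at 3 mM Ni, 22.8, 6.71 and 12.5 CPM in untreated cultures, 1.43 ± 0.35, adjusted p = 0.0124). A subunit of DNA polymerase delta (*CMT350C*) was downregulated (214, 222 and 223 CPM at 3 mM Ni, 299, 462 and 378 CPM in untreated cultures, −0.79 ± 0.21, adjusted p = 0.0179). *CMR136C* and *CMQ183C* were not called without 3C, C4 or C5, *CMT350C* without 3C, 3D, C4 or C5 and *CMQ381C*, named after its values were seen, without 3D, 3E, C4 or C5 (adjusted p up to 0.129).

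The size of this group depended on the culture set. Its median was 0.21 for 3C against C3 and 0.96 for 3D and 3E against C4 and C5, and the number upregulated was 22 without C3, 17 without 3C and C3, 18 with the culture block and 1 without C4 or without C5. Genes of cell division and the cytoskeleton gave a like picture, with 65 of 85 higher (median 0.27), 6 upregulated (7.06%, against 5.42% of all genes) and 1 downregulated, and 24 upregulated without C3, 17 without 3C and C3, 26 with the culture block, 3 without 3C or C5 and 1 without C4. The tubulin folding cofactor B (*CMA036C*) had 74.5, 84.4 and 72.7 CPM at 3 mM Ni, against 44.5, 28.0 and 30.4 CPM in untreated cultures (1.17 ± 0.26, adjusted p = 0.00717, edgeR). The phosphatase CDC14 (*CMI092C*), which acts at the exit from mitosis in yeast, was downregulated (296, 252 and 336 CPM at 3 mM Ni, 534, 485 and 554 CPM in untreated cultures, −0.83 ± 0.19, adjusted p = 0.008). Both kept their call in each of the fits without 1 library. DNA repair and recombination had 5 upregulated (10%, against 5.42% of all genes) and 4 downregulated genes (8%, against 4.77%) among 50, with 3 and 3 without 3C and C3 and 9 and 6 with the culture block, and 1 upregulated without 3C or C5. The excinuclease subunit B (*CMG133C*) had 88.9, 95.9 and 90.1 CPM at 3 mM Ni and 61.8, 55.9 and 65.2 CPM in untreated cultures (0.59 ± 0.13, adjusted p = 0.00779), whereas the class II photolyase (*CMH170C*), which reverses UV damage with light, was downregulated (103, 79.6 and 92.1 CPM at 3 mM Ni, 138, 122 and 130 CPM in untreated cultures, −0.50 ± 0.13, adjusted p = 0.0162), but not without 3D, 3E or C5 (adjusted p up to 0.0863).

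**Figure D4:**
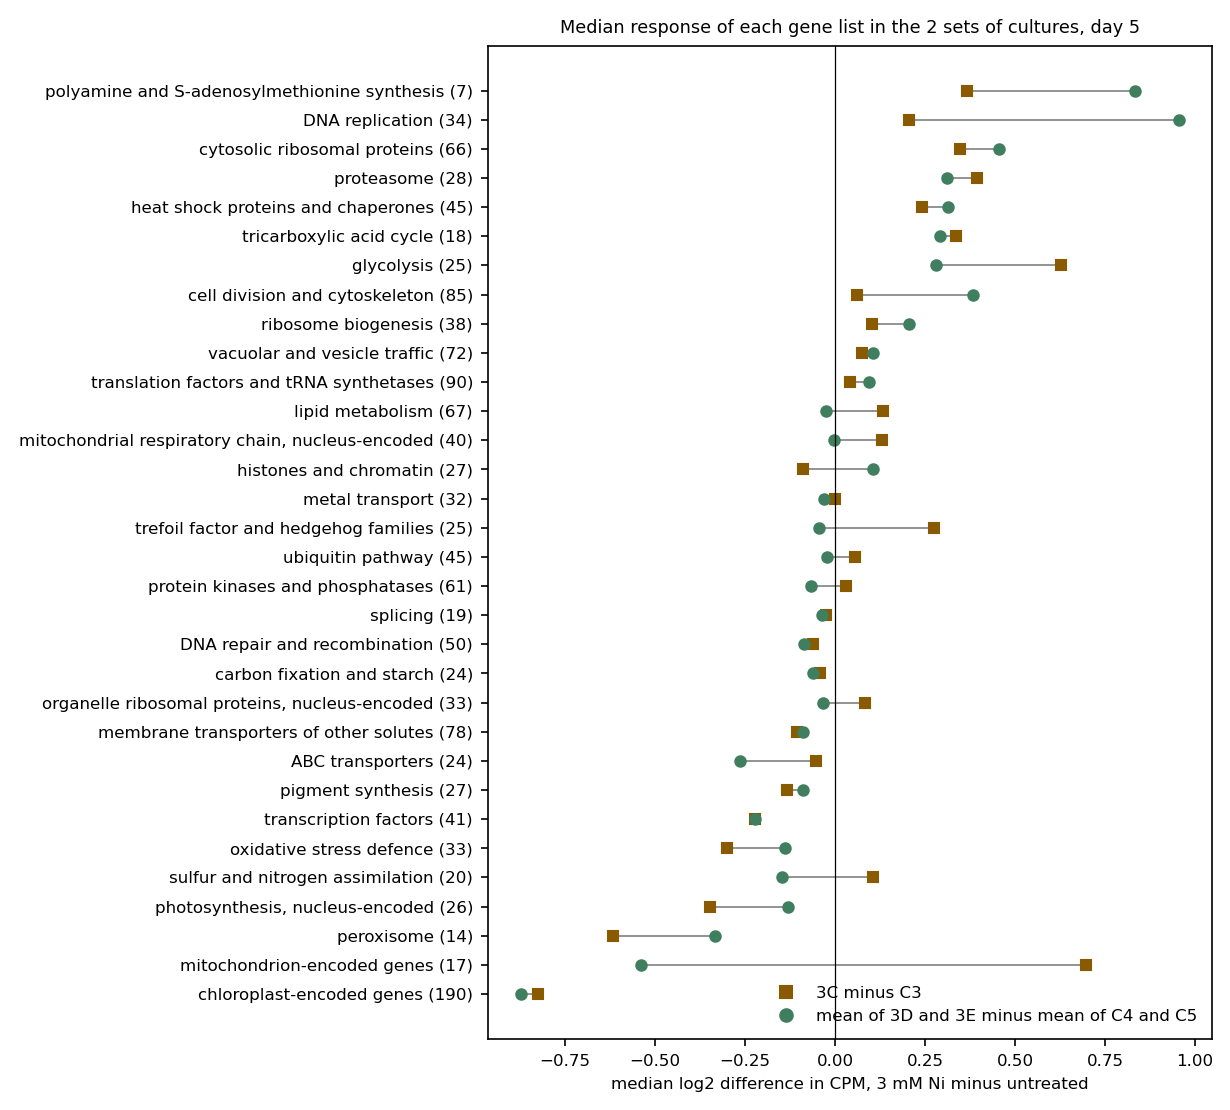
Median over each gene list of the log2 difference in CPM (prior count 2), 3 mM Ni minus untreated, for culture 3C against C3 (squares) and for the means of 3D and 3E against those of C4 and C5 (circles), with the number of genes tested in brackets. The chloroplast-encoded genes lie at −0.82 and −0.87, and the DNA replication genes at 0.21 and 0.96.

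Regulatory genes changed in both directions. Of 41 transcription factors 2 were upregulated (4.88%, against 5.42% of all genes), the heat shock factor above and a MYB-related gene (*CMT134C*, 157, 171 and 191 CPM at 3 mM Ni, 135, 111 and 118 CPM in untreated cultures, 0.51 ± 0.16, adjusted p = 0.0388, edgeR, not called when any library but C3 was left out), and 5 were downregulated (12.2%, against 4.77% of all genes), 3 of them MYB-related. *CMS371C* had 256, 194 and 232 CPM at 3 mM Ni, against 452, 368 and 442 CPM in untreated cultures (−0.89 ± 0.19, adjusted p = 0.00521), and *CMA023C* had 630, 935 and 919 CPM at 3 mM Ni and 1053, 1980 and 1793 CPM in untreated cultures (−0.96 ± 0.22, adjusted p = 0.00928). A GATA factor (*CMD180C*) had 535, 837 and 841 CPM at 3 mM Ni and 1296, 1543 and 1368 CPM in untreated cultures (−0.93 ± 0.24, adjusted p = 0.0141). Of these 3 downregulated factors, *CMS371C* alone kept its call whichever library was left out, and the others were lost without 3C or C4 (adjusted p up to 0.107). The downregulated factors were 12 with the culture block, 10 without C3 and 1 without 3C or C4. Among 61 protein kinases and phosphatases 3 were upregulated (4.92%) and 4 downregulated (6.56%), near the 5.42% and 4.77% of all genes, with 4 and 2 without 3C and C3 and 7 and 8 with the culture block or without C3. Leaving out C4 gave 2 upregulated and 0 downregulated, and C5 1 of each. The kinase *CME172C*, similar to the p21-activated kinases that answer to small GTPases, had 381, 408 and 378 CPM at 3 mM Ni and 146, 149 and 156 CPM in untreated cultures (1.37 ± 0.25, adjusted p = 0.0017). The values of *CME172C* were alike within each group and far apart between them.

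Genes of the vacuole and of vesicle traffic had 4 DEGs in each direction among 72 (5.56% each, near the shares of all genes), with 2 upregulated and 4 downregulated without 3C and C3 and 12 and 6 with the culture block, and 1 upregulated without 3C, C4 or C5. Opposite directions were found within the proton pump of the vacuole, whose catalytic-sector subunit B (*CMP123C*) had 121, 122 and 94.5 CPM at 3 mM Ni, against 80.4, 64.9 and 68.4 CPM in untreated cultures (0.65 ± 0.16, adjusted p = 0.0117, edgeR), and whose proteolipid subunit (*CMQ323C*) had 134, 150 and 146 CPM at 3 mM Ni and 182, 273 and 231 CPM in untreated cultures (−0.68 ± 0.14, adjusted p = 0.00404). The SEC14 protein *CMT608C*, of a family that transfers phospholipids between membranes, was upregulated (72.0, 59.6 and 60.7 CPM at 3 mM Ni, 39.4, 37.3 and 38.7 CPM in untreated cultures, 0.74 ± 0.16, adjusted p = 0.00632). *CMQ323C* and *CMT608C* kept their call whichever library was left out, and *CMP123C* lost it without 3C, C4 or C5 (adjusted p up to 0.0628). Histones and chromatin had 1 downregulated gene of 27 (3.70%, against 4.77% of all genes, and 2 upregulated and 3 downregulated with the culture block), an acetylase complex subunit (*CMO046C*, −0.57 ± 0.18, adjusted p = 0.0488). Without 3C and C3 this list had 1 upregulated and 0 downregulated. Ribosome biogenesis had 1 upregulated gene of 38 (2.63%, against 5.42% of all genes, with 3 without 3C and C3 and 8 with the culture block), bystin (*CMO109C*, 0.70 ± 0.18, adjusted p = 0.0139). Splicing had 1 downregulated gene of 19 (5.26%, against 4.77% of all genes, with 1 upregulated and 1 downregulated without 3C and C3), subunit 1 of splicing factor 3b (*CMB002C*, 139, 138 and 155 CPM at 3 mM Ni, 220, 217 and 220 CPM in untreated cultures, −0.61 ± 0.13, adjusted p = 0.00438). In the fits without 1 library *CMO046C* kept its call only without C4, and *CMO109C* was lost without 3C, C4 or C5. *CMO046C* was also called with the culture block (adjusted p = 0.0324), but not without 3C and C3 (adjusted p = 0.208).

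Genes annotated by similarity to trefoil factors and hedgehog proteins, whose role in this alga is unknown, had the highest share of upregulated members, 8 of 25 (32.0%, against 5.42% of all genes), or 7 without 3C and C3 and 5 without C5. The trefoil genes accounted for 6 of them, out of 11 tested, with a median log2 fold change of 1.13. *CMR001C* (chromosome 18, positions 3369 to 6125) had 37.4, 38 and 47.4 CPM at 3 mM Ni, against 6.56, 4.85 and 4.30 CPM in untreated cultures (2.96 ± 0.34, adjusted p = 1.3e-05, edgeR). *CMD002C* had 189, 217 and 217 CPM at 3 mM Ni and 61.1, 48.1 and 53.7 CPM in untreated cultures (1.93 ± 0.32, adjusted p = 0.000697). *CME001C* had 68.5, 50.7 and 59.6 CPM at 3 mM Ni and 19.7, 11.6 and 15.4 CPM in untreated cultures (1.93 ± 0.34, adjusted p = 0.00128). In all 3 the groups were well apart and the call held whichever library was left out. The hedgehog genes were divided, with 2 of 14 upregulated and a median of −0.49, and 8 downregulated with the culture block. *CMO185C* of this family (chromosome 15, positions 462835 to 464427) had 362, 409 and 331 CPM at 3 mM Ni and 24.2, 95.1 and 82.7 CPM in untreated cultures (2.45 ± 0.47, adjusted p = 0.00253). Since reads that align to several copies were left out by the counting, the level of single copies in these families is uncertain.

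Of 1971 nuclear genes without a description 106 were upregulated and 79 downregulated, close to the shares over all genes. Among them was *CMK153C* (chromosome 11, positions 421112 to 422020), with 223, 183 and 137 CPM at 3 mM Ni, against 1.73, 0.370 and 1.07 CPM in untreated cultures (7.35 ± 0.64, adjusted p = 1.5e-07, edgeR). *CMI023C* (chromosome 9, positions 71656 to 72696) had 401, 363 and 378 CPM at 3 mM Ni and 88.7, 43.2 and 56.9 CPM in untreated cultures (2.59 ± 0.23, adjusted p = 1.5e-07). These 2 genes had the smallest adjusted p-values of the comparison. *CMI286C* had 337, 194 and 173 CPM at 3 mM Ni and 22.1, 14.5 and 8.95 CPM in untreated cultures (3.94 ± 0.64, adjusted p = 0.000571), *CMP080C* had 234, 118 and 79.6 CPM at 3 mM Ni and 23.5, 4.1 and 7.52 CPM in untreated cultures (3.60 ± 0.61, adjusted p = 0.000795), and *CMI068C* had 258, 278 and 270 CPM at 3 mM Ni and 73.9, 64.9 and 56.5 CPM in untreated cultures (2.05 ± 0.21, adjusted p = 1.7e-06). All 5 kept their call without any single library.

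*CMH019C*, similar to the UV-B receptor UVR8 of *Arabidopsis*, had 45.2, 49.6 and 40.7 CPM at 3 mM Ni, against 6.56, 2.61 and 3.58 CPM in untreated cultures (3.39 ± 0.47, adjusted p = 9.9e-05, edgeR). Its groups were clearly apart. Some of the largest changes rest on very few counts. *CMR119C*, with 18 counts in all at 3 mM Ni and none in untreated cultures, was at least 1.71-fold higher when 3 counts are assumed in each untreated library (adjusted p = 0.0323), and it was not called without 3C, C4 or C5 (adjusted p up to 0.175). *CMR295C*, with 25 counts at 3 mM Ni and 1 in untreated cultures, had a ratio of summed counts of 20.9 (exact 95% interval 3.42 to 858, counting error only), and was not called without 3C or without C4 (adjusted p up to 0.0734). *CMM104C*, a peptidase of the insulinase family, had overlapping groups (315, 312 and 324 CPM at 3 mM Ni, 328, 322 and 303 CPM in untreated cultures, −0.00 ± 0.10, adjusted p = 0.988). *CMR269C*, of the NagB and RpiA superfamily, was downregulated by a small amount (72.6, 74.6 and 76.7 CPM at 3 mM Ni, 91.8, 102 and 89.8 CPM in untreated cultures, −0.34 ± 0.11, adjusted p = 0.0455), but not with the culture block (adjusted p = 0.0571), nor when any library other than C3 was left out (adjusted p up to 0.188).

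The dose was compared within day 5. At 1 mM Ni, against the same 3 untreated libraries, 23 genes were DEGs (0.48% of those tested), and as these libraries are shared, the 2 comparisons are not independent. By the root mean square log2 difference, each 1 mM culture lay closer to 3C (0.34 to 0.43) than to 3D and 3E (0.44 to 0.55). Each also lay closer to C3 (0.32 to 0.45) than to C4 and C5 (0.73 to 0.77). When 1 mM Ni is compared with 3 mM Ni or with untreated cultures, dose and culture set can thus not be fully told apart. The log2 fold change at 3 mM and 1 mM Ni was 7.35 and 6.27 for *CMK153C*, 4.62 and 3.30 for *CMJ101C*, 4.24 and 3.80 for *CMS155C*, 3.44 and 3.25 for *CML262C* and 2.20 and 2.01 for *CML004C*, each called at both doses. It was 2.51 and 1.16 for *CMO066C*, 1.39 and 0.52 for *CMS343C*, 1.89 and 0.72 for *CMT597C* and −1.47 and −0.55 for *CMV141C*, each called at 3 mM Ni and not at 1 mM Ni (adjusted p = 0.0863 to 0.282, edgeR). None of these 9 genes differed between the doses by the direct test. For *CMV141C* the estimated fall was larger at 3 mM Ni, but the direct test did not call it (log2 fold change −0.93, adjusted p = 0.121, edgeR). The estimate for the chloroplast-encoded genes as a list was not larger at 3 mM Ni. The median log2 fold change of the list was −0.91 at 3 mM Ni and −0.97 at 1 mM Ni. Compared directly, 3 mM and 1 mM Ni differed in 4 genes (0.0834%). The chloroplast gene *CMV241C* had 381, 252 and 260 CPM at 3 mM Ni and was lower than at 1 mM Ni (log2 fold change −1.22), as was *CMJ107C* (−0.85), while *CMP323C* and *CMR361C* were higher (1.06 and 0.92). The number of genes called was 5 without the 1 mM culture 1B, 1 without 1A and 0 without 1C, 3D or 3E. None of the 4 genes was called in a fit of the day 5 libraries only, and 1 of them was called by DESeq2.

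The later days have their own untreated libraries, although names of cultures recur on them. On day 10 1402 genes were DEGs at 3 mM Ni (29.2% of those tested) and on day 15 494 (10.3%). Of the 489 DEGs of day 5, 377 were also DEGs in the same direction on day 10 (77.1% of those of day 5 and 26.9% of those of day 10) and 126 on day 15 (25.8% of those of day 5 and 25.5% of those of day 15), and no DEG of day 5 was called in the opposite direction on either day. A further 95 were called on neither later day. By the interaction contrast no gene responded differently on day 5 and day 10 in edgeR at an adjusted p under 0.05, with 254 genes at an unadjusted p under 0.05, and DESeq2 called 4. *CML262C* averaged 222 ± 19.6 CPM at 3 mM Ni and 20.4 ± 12.3 CPM in untreated cultures on day 5 (SD, n = 3 each), 203 ± 78.6 and 29.4 ± 5.93 CPM on day 10 and 176 ± 60.4 and 10.4 ± 6.55 CPM on day 15. Its 3 treated libraries lay above the untreated ones on each day.

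*CMJ101C* averaged 1319 ± 239 CPM at 3 mM Ni and 53.5 ± 11.3 CPM in untreated cultures on day 5, 412 ± 279 and 63.5 ± 32.9 CPM on day 10 and 462 ± 55.8 and 124 ± 79.8 CPM on day 15 (SD, n = 3 each), with log2 fold changes of 4.62, 2.70 and 1.91. *CMS343C* averaged 800 ± 71.4 CPM at 3 mM Ni and 305 ± 55.8 CPM in untreated cultures on day 5, 555 ± 174 and 284 ± 44.6 CPM on day 10 and 563 ± 60 and 689 ± 449 CPM on day 15, and was a DEG on days 5 and 10 and not on day 15 (adjusted p = 0.558, edgeR). The untreated cultures of day 15 were widely spread. *CMV141C* averaged 61.3 ± 7.68 CPM at 3 mM Ni and 170 ± 16.9 CPM in untreated cultures on day 5, 79.2 ± 16.1 and 191 ± 32.1 CPM on day 10 and 103 ± 14 and 105 ± 7.47 CPM on day 15. Its log2 fold changes were −1.47, −1.27 and −0.02, the last not called (adjusted p = 0.965). *CMV230C* and *CMV228C*, the chloroplast genes with the lowest values on day 5, were not called on day 10 (−0.51 and −0.30) or day 15 (−0.66 and −0.34). These single genes do not stand for the chloroplast-encoded genes as a list. The median log2 fold change of the list was −0.91 on day 5, −0.54 on day 10 and −0.93 on day 15.

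**Figure D5:**
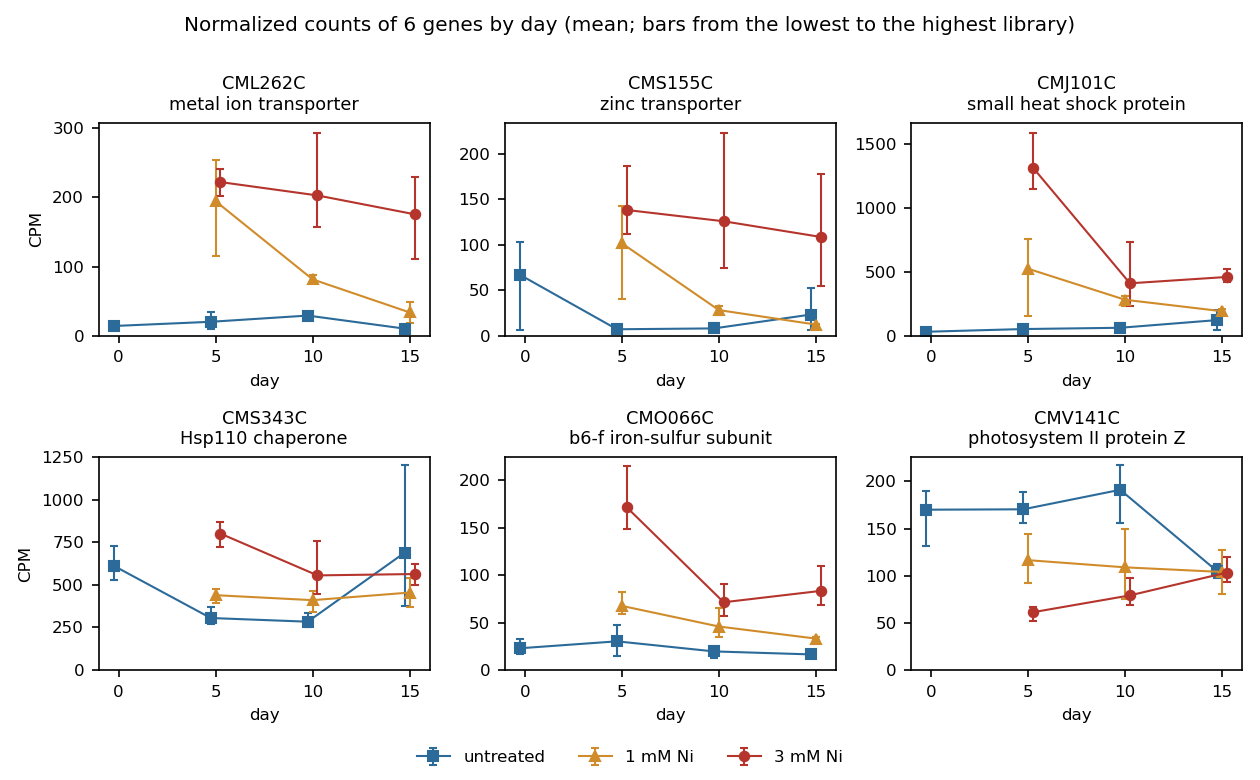
Mean CPM of 6 genes in untreated cultures and at 1 and 3 mM Ni by day, with bars from the lowest to the highest library (n = 3 per condition, 2 at 1 mM Ni on day 15). The small heat shock protein *CMJ101C* was highest on day 5, at 1319 CPM at 3 mM Ni against 53.5 CPM in untreated cultures, and the photosystem II gene *CMV141C* had nearly equal means on day 15 (103 and 105 CPM).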

How the data were processed

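Poly(A)-selected RNA of whole cultures was sequenced, and the deposited table holds whole-number counts per gene that the authors made from the trimmed reads (Trimmomatic 0.39) by alignment with HISAT2 to the assembly ASM9120v1, marking of duplicates with GATK and counting with HTSeq on the reverse strand (version 0.9.1 per the labels). Reads that align to several places are left out by that counting by default, which lowers the counts of gene copies. The labels also name DESeq2 1.38.3.

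All 29 libraries entered 1 fit in edgeR 4.0.16 (R 4.3.3, limma 3.58.1), with 1 coefficient for each condition, TMM normalisation and filterByExpr, which left out 188 genes. Quasi-likelihood p-values were adjusted over all 4796 genes by Benjamini and Hochberg, and genes under 0.05 were called DEGs at any fold change. SEs are those of the log2 fold change. CPM were computed with TMM library sizes, and differences between single libraries with a prior count of 2. Groups came from the labels. The members and gene lists were chosen with earlier results of these data known. Named genes were the 10 DEGs with the largest change in each direction whose groups do not overlap, up to 4 DEGs of the lowest adjusted p per list and direction (the member of lowest p where a list had none), and loci named in the study's text, and any others were chosen after their values were seen. Gene names and functions come from the table's descriptions and the study's text.

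The labels do not say that cultures of the same place belong together. Deviations from the group means correlated across genes between same-placed cultures (Pearson's r 0.734 for 3C and C3, 0.555 for 3D and C4, 0.628 for 3E and C5), and also between 3D and C5 (0.568) and 3E and C4 (0.439), while 3C or C3 with the other cultures gave −0.708 to −0.584. The libraries thus fall into 2 sets, and the data do not show that 3D belongs with C4 and 3E with C5. Blocked counts are given for lists where they moved the number called by over 1.5 times. Alternatives were DESeq2 1.42.0, its size factors in edgeR, other filters, other sets of libraries, a fold threshold of 1.5 and leaving out each library. The scripts were tested on simulated counts. Intervals of count ratios are exact (95%) and cover counting error only, as the reads carry no molecular identifiers.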

Additional observations from a re-analysis of the deposited data

How the results depend on the processing

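The 489 DEGs at 3 mM Ni against untreated cultures became 121 when the 6 libraries were fitted alone (76 upregulated and 45 downregulated), 46 when a change over 1.5-fold was required, 1357 with the replicate block of same-placed cultures and 1687 with a block of 2 sets (3C and C3 against the others), which was chosen after seeing the data. Leaving out 1 library gave 179 to 1157. DESeq2 gave 642, and the other filters, size factors and library sets gave 422 to 542. Between 3 mM and 1 mM Ni the number called, 4, was 2 with day 5 libraries only, 249 with the 2 conditions alone and 72 with DESeq2. These held 0, 4 and 1 of the 4 genes. It was 0 over 1.5-fold and 0 to 5 without 1 library. The response that differs between days 5 and 10 was called in 4 genes by DESeq2 and in 0 to 19 without 1 library, the 19 without the day 10 library 3C. The cause of these differences was not tested, beyond the smaller number of libraries behind the spread in the fits of few libraries. No named gene called at 3 mM Ni against untreated cultures reversed its direction in any of these fits in which it was tested. Other genes and the other comparisons were not checked for this. The difference in chloroplast share, −2.13 percentage points, ran from −2.72 to −1.76 without 1 library. Genes of a few counts cannot show moderate changes, and no p of a single share can pass 0.1 with 3 libraries a group.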

Other observations

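Genes near the ends of chromosomes and retroelements were looked at after the values of the trefoil factor family were seen, and are given as values only. Among the first and last 2 annotated genes of each chromosome, 75 were tested, of which 9 were upregulated and 2 downregulated with a median log2 fold change of −0.08, against 5.42% and 4.77% of all genes. Of these genes 19 belong to the trefoil factor and hedgehog families, which held 6 of the upregulated ones. With the culture block 11 were upregulated and 17 downregulated. Of 11 genes tested that are described as retroelements, sequences that copy themselves through RNA, 3 were upregulated and none downregulated, against the same shares of all genes, with a median of 0.27. *CML207C* had 11.9, 7.08 and 4.65 CPM at 3 mM Ni and 2.42, 2.24 and 1.07 CPM in untreated cultures (log2 fold change 2.02, adjusted p = 0.023, edgeR), and *CMP121C* had 8.17, 13.0 and 11.6 CPM at 3 mM Ni and 3.45, 2.61 and 2.51 CPM in untreated cultures (1.92, adjusted p = 0.0234). In neither did the groups overlap, and *CML207C* was not called without 3C, C4 or C5, nor *CMP121C* without 3D, C4 or C5 (adjusted p up to 0.149). Reads that align to several copies were not counted, so these levels are uncertain.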
